A study of Mus musculus with 6 samples.

Results

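The genes described here are 10 that mark monocytes entering inflamed tissue or that carry the Fc receptor signal in myeloid cells: Ly6c2, Ccr2, Itgam, Lyz2, Cd14, Csf1r, Fcgr1, Fcgr3, Fcgr4 and Tyrobp. They were chosen by name, with earlier results of these data known, so counts of them beside shares of all genes are not free of that choice. The same holds for the other gene lists used below. All 10 were found, once each, among the 55222 entries of the deposited expression table. RNA of mouse liver (C57BL/6) was measured in 6 libraries, 2 in each of 3 groups. The first group received carbon tetrachloride (CCl4, a solvent that injures the liver) and an adeno-associated virus with a short hairpin RNA against Phpt1, a histidine phosphatase (AAV-shPhpt1). The second received CCl4 and a control virus (AAV-Ctrl), and the third, called normal, had neither, so CCl4 and virus cannot be told apart in a comparison with it. The labels give 12.5 ml/kg CCl4 2 times per week by intraperitoneal injection, virus into a vein after 1 week of CCl4, 5 mice per group, and harvest 48 h after the last CCl4 dose. The sources used here give neither the promoter of the hairpin nor the sequence in the control virus, and they do not say whether a library holds RNA of 1 animal or of several.

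Classical monocytes leave the bone marrow with the chemokine receptor Ccr2 and carry the surface protein Ly6c2. In an injured liver they settle beside the resident macrophages, the Kupffer cells, and turn into macrophages that depend on the growth factor receptor Csf1r. Activating Fc receptors bind antibody-coated particles and signal through a separate adaptor chain, Fcer1g, while Tyrobp (DAP12) is the adaptor of a different set of myeloid receptors. Fcgr2b is the inhibitory member of the Fc receptor family.

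Values are FPKM (fragments per kilobase of transcript, scaled to library size), which imply 21489746 to 24188959 reads per library. Every library was rich in hepatocyte genes, as liver should be, with Alb (albumin) between 72939 and 129572 FPKM. The 2 AAV-shPhpt1 libraries differed more from each other than the replicates of the other groups. Over all 13517 genes with a group mean of at least 1 FPKM the SD between replicates, on the log2 scale, was 0.439 in AAV-shPhpt1, 0.280 in AAV-Ctrl and 0.306 in normal. Each result on AAV-shPhpt1 is therefore given by library. The hairpin's target Phpt1 was near the detection limit, at 0.213 and 0.259 FPKM in AAV-shPhpt1, 0.227 and 0.0521 in AAV-Ctrl, and 0.234 and 0.210 in normal. From 9 reads in AAV-shPhpt1 and 5 in AAV-Ctrl the ratio was 1.74 (exact 95% counting interval 0.523 to 6.61), too few reads for a statement on Phpt1. Of its exonic bases 38.9% are shared with Mamdc4 on the same strand.

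All 10 genes were higher in both AAV-Ctrl libraries than in both normal libraries, as were 60% of all tested genes, and 8 of them passed the test, as did 18.2% of all tested genes. With the hairpin, 6 of the 10 were lower in both libraries than in both AAV-Ctrl libraries, as were 26.2% of all tested genes, and none passed, against 0% of all tested genes. The 3 activating Fc receptors had the lowest hairpin means relative to AAV-Ctrl, and Cd14 had the highest, at 16.8 FPKM in AAV-shPhpt1 and 16.7 FPKM in AAV-Ctrl. The AAV-shPhpt1 libraries split: replicate 1 kept values above normal for all 10 genes, and replicate 2 lay near or below normal for most of them but not for Cd14, Ccr2, Itgam and Lyz2.

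**Figure D1:**
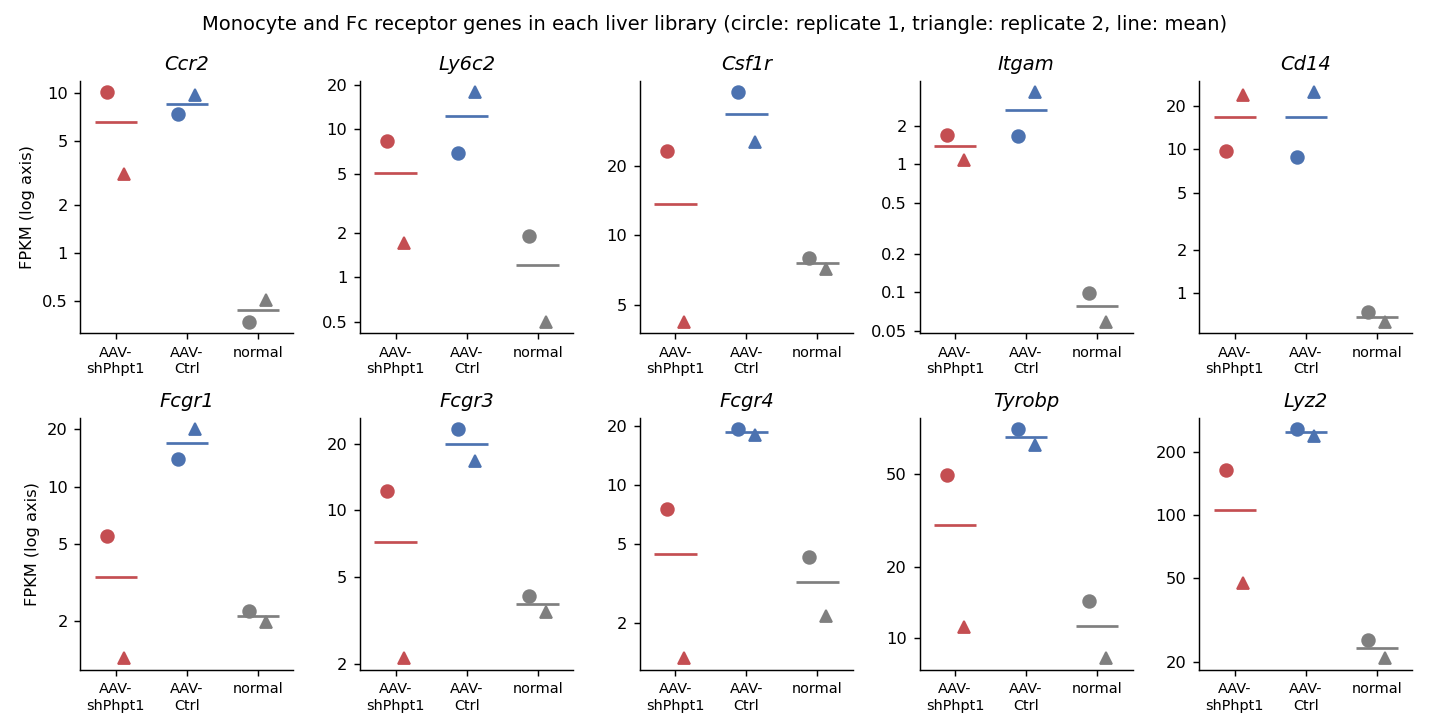
FPKM (log axis) of each of the 10 genes in every library, with circles for replicate 1, triangles for replicate 2 and a line at the group mean. The normal libraries lie below both AAV-Ctrl libraries in all panels, and the triangle of AAV-shPhpt1 lies below its circle in all panels but Cd14.

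Ccr2 (ENSMUSG00000049103, chromosome 9, 124101950 to 124113557, GRCm38) is the receptor through which Ccl2 and Ccl7 draw monocytes out of the marrow. It had 10.1 and 3.13 FPKM in AAV-shPhpt1, 7.45 and 9.70 in AAV-Ctrl, and 0.372 and 0.507 in normal. Both CCl4 groups lay well above normal and overlapped each other, since replicate 1 of AAV-shPhpt1 held the highest value of all. AAV-Ctrl was 19.5-fold over normal (log2 difference 2.73, SE 0.45, adjusted p = 0.0207). The AAV-shPhpt1 mean was 15.1-fold over normal, with a log2 difference of 2.24 (SE 0.45) and adjusted p = 0.0518. Without AAV-shPhpt1 replicate 2 that adjusted p was 0.00802, and without replicate 1 it was 0.0910. Against AAV-Ctrl the log2 difference was -0.49 (SE 0.45, adjusted p = 0.853), and without AAV-shPhpt1 replicate 2 it was 0.23.

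The Ccr2 ligand Ccl2 had 3.42 and 5.97 FPKM in AAV-shPhpt1, 3.50 and 14.5 in AAV-Ctrl, and 0.877 and 0.0875 in normal. It rose in AAV-Ctrl against normal (adjusted p = 0.0374), as did Ccl7, which binds the same receptor (adjusted p = 0.0451). Ccl7 reached 0.370 and 1.55 FPKM in AAV-shPhpt1, 2.14 and 13.8 in AAV-Ctrl, and 0.0581 and 0 in normal. In both ligands replicate 2 was the higher AAV-shPhpt1 library, the reverse of their receptor.

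Ly6c2 (ENSMUSG00000022584, chromosome 15, 75108158 to 75111970) encodes the surface protein by which classical monocytes are sorted in mice. It had 8.40 and 1.70 FPKM in AAV-shPhpt1, 6.92 and 17.8 in AAV-Ctrl, and 1.91 and 0.500 in normal. Replicates were 2.57-fold apart in AAV-Ctrl and 4.95-fold apart in AAV-shPhpt1, and the hairpin libraries overlapped both other groups. AAV-Ctrl was 10.3-fold over normal, at adjusted p = 0.0499, just inside the threshold. The close copy Ly6c1 lies 59.3 kb away, and 13.9% of the 50-base windows in Ly6c2 transcripts also occur in Ly6c1 transcripts, so reads of the 2 genes may be mixed. Ly6c1 stood at 0.683 and 0.600 FPKM in AAV-shPhpt1, 1.97 and 1.14 in AAV-Ctrl, and 0.600 and 0.202 in normal. It did not pass against normal in AAV-Ctrl (adjusted p = 0.0787).

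Csf1r (ENSMUSG00000024621, on chromosome 18) is the receptor for Csf1 and Il34 on which macrophages depend. It had 23.2 and 4.23 FPKM in AAV-shPhpt1, 41.4 and 25.3 in AAV-Ctrl, and 7.98 and 7.15 in normal. Both AAV-Ctrl libraries were above normal, at 4.41-fold in the mean, the smallest ratio of the 10 genes in that comparison, and the test was missed (log2 difference 1.96, SE 0.67, adjusted p = 0.0789). AAV-shPhpt1 replicate 1 was above both normal libraries, and replicate 2 was below both normal libraries. Of its exonic bases 15.1% overlap the gene Hmgxb3 on the opposite strand, and the sources used here do not say whether the counting used strand. The ligand Csf1 rose in AAV-Ctrl against normal (adjusted p = 0.0241), with 8.50 and 6.13 FPKM in AAV-shPhpt1, 12.3 and 14.0 in AAV-Ctrl, and 5.71 and 5.82 in normal. The other ligand, Il34, had 2.29 and 5.08 FPKM in AAV-shPhpt1, 1.58 and 3.36 in AAV-Ctrl, and 0.418 and 1.09 in normal (adjusted p = 0.135 in AAV-Ctrl against normal).

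Itgam (ENSMUSG00000030786, chromosome 7, 128062640 to 128118491) is the CD11b chain of the integrin by which myeloid cells adhere and take up complement-coated particles. It was the lowest of the 10, with 1.68 and 1.08 FPKM in AAV-shPhpt1, 1.66 and 3.64 in AAV-Ctrl, and 0.0983 and 0.0588 in normal. The normal values rest on 6 and 4 reads. AAV-Ctrl was 33.7-fold over normal by group means (adjusted p = 0.0267), and from 353 reads in AAV-Ctrl and 10 in normal the exact 95% counting interval of the ratio was 18.7 to 73.0. AAV-shPhpt1 was above normal in both libraries, at 17.6-fold in the mean and adjusted p = 0.0940. Of the exonic bases of Itgam 68.7% are shared with the annotated gene Gm49368 on the same strand, which is listed at 0 in all 6 libraries. The sources used here name no counter, so how reads over these shared bases were assigned is not known. The level of Itgam relative to other genes is therefore uncertain and may be too low. Itgb2, the chain that pairs with Itgam, was far more abundant, at 23.2 and 6.07 FPKM in AAV-shPhpt1, 34.1 and 31.8 in AAV-Ctrl, and 2.92 and 2.60 in normal. Itgb2 rose 11.9-fold in AAV-Ctrl against normal (adjusted p = 0.0205).

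Cd14 (ENSMUSG00000051439, on chromosome 18) is the co-receptor that hands lipopolysaccharide to Tlr4 and Ly96, and it is made by hepatocytes as well as by myeloid cells. It had 9.70 and 23.8 FPKM in AAV-shPhpt1, 8.83 and 24.7 in AAV-Ctrl, and 0.740 and 0.638 in normal. In both CCl4 groups replicate 2 was more than 2-fold above replicate 1, and the 2 groups overlapped throughout. Cd14 passed the test in both CCl4 groups against normal, at 24.3-fold in AAV-shPhpt1 (log2 difference 3.27, SE 0.54, adjusted p = 0.0386) and 24.3-fold in AAV-Ctrl (3.23, SE 0.54, adjusted p = 0.0209). It was the only one of the 10 genes that passed in AAV-shPhpt1 against normal, where 3.26% of all tested genes were called higher and 1.07% lower. That call held with a pseudocount of 0.1, a filter of 5 FPKM, the replicate block and without AAV-shPhpt1 replicate 2. It was lost under every other alternative run, at adjusted p = 0.0516 to 0.181, median centring among them (0.0542, with 0.947% of all tested genes called higher). Between AAV-shPhpt1 and AAV-Ctrl the log2 difference was 0.04 (SE 0.54), and it was -0.57 without AAV-shPhpt1 replicate 2 and 0.64 without replicate 1.

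In AAV-shPhpt1 replicate 2 Cd14 went the other way from the rest of the 10 genes. Its reads were 722 in replicate 2 and 287 in replicate 1, a ratio of 2.46 relative to library totals (exact 95% counting interval 2.14 to 2.83). For the other 9 genes this ratio was 0.174 to 0.639. Lbp, the plasma protein from hepatocytes that carries lipopolysaccharide to Cd14, had 83.4 and 140.4 FPKM in AAV-shPhpt1, 97.7 and 130.7 in AAV-Ctrl, and 92.1 and 45.6 in normal. Of 15 acute phase genes, a list added after these Cd14 values were seen, 9 were higher in AAV-shPhpt1 replicate 2 than in replicate 1, none of them more than 2-fold, and 6 were lower, Saa2 and Lcn2 more than 2-fold (ratios 0.434 and 0.422). In AAV-Ctrl, where Cd14 was 2.79-fold higher in replicate 2, 11 of the 15 were higher in replicate 2. Their ratios ran from 0.576 (Saa2) to 4.17 (Saa3). Over all tested genes the median log2 difference of replicate 2 from replicate 1 was 0.077 in AAV-Ctrl and -0.088 in AAV-shPhpt1. The share of all tested genes higher in replicate 2 is not given, so these counts cannot be read as particular to acute phase genes. Tlr4 had 2.01 and 0.583 FPKM in AAV-shPhpt1, 4.44 and 3.30 in AAV-Ctrl, and 0.367 and 0.448 in normal, so it was low in the library where Cd14 was high. Ly96, which binds lipopolysaccharide beside Tlr4, had 5.22 and 4.74 FPKM in AAV-shPhpt1, 4.47 and 6.93 in AAV-Ctrl, and 3.31 and 2.90 in normal. The part of hepatocytes in the Cd14 values was not tested.

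Fcgr1 (ENSMUSG00000015947, chromosome 3, 96282909 to 96293969), the high-affinity receptor for IgG and a known target of interferon-gamma, had 5.50 and 1.27 FPKM in AAV-shPhpt1, 13.9 and 19.95 in AAV-Ctrl, and 2.25 and 1.97 in normal. Fcgr3 (ENSMUSG00000059498, chromosome 1, 171051174 to 171064935), a low-affinity receptor, had 12.2 and 2.12 FPKM in AAV-shPhpt1, 23.4 and 16.8 in AAV-Ctrl, and 4.08 and 3.44 in normal. Fcgr4 (ENSMUSG00000059089, chromosome 1, 171018920 to 171029761), an intermediate-affinity receptor of monocytes and macrophages, had 7.59 and 1.32 FPKM in AAV-shPhpt1, 19.3 and 18.2 in AAV-Ctrl, and 4.30 and 2.16 in normal. For each of the 3, both AAV-shPhpt1 libraries lay below both AAV-Ctrl libraries, and replicate 2 also lay below both normal libraries.

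In AAV-Ctrl against normal, Fcgr1 rose 8.04-fold (adjusted p = 0.0258) and Fcgr4 5.80-fold (adjusted p = 0.0453), while Fcgr3, at 5.34-fold, missed the threshold (adjusted p = 0.0567). In AAV-shPhpt1 against AAV-Ctrl the log2 differences were -2.20 (SE 0.48) for Fcgr1, -1.70 (SE 0.62) for Fcgr3 and -2.15 (SE 0.60) for Fcgr4, with adjusted p = 0.444, 0.546 and 0.490. With AAV-shPhpt1 replicate 1 alone the differences were -1.44, -0.66 and -1.20 for these genes, and with replicate 2 alone -2.96, -2.74 and -3.09. Fcgr1 and Fcgr4 were thus below AAV-Ctrl by over 1 log2 unit in each hairpin library taken alone. In AAV-shPhpt1 against normal none of the 3 passed, with log2 differences of 0.31, 0.43 and 0.12.

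The promoters of these receptors and of 2 of the monocyte genes are shown because they share a short motif that the choice of genes did not use. RefSeq promoter windows of GRCm38.p6, from 250 bases before to 50 after the annotated start, were found for 7 of the 10 genes, and the first listed start was used. The letters GAGGAA, searched on both strands and the core of sites bound by the myeloid factor PU.1, occurred in the windows of 5 of these 7, Ly6c2, Itgam, Fcgr1, Fcgr3 and Fcgr4, and in 28.3% of all 32851 windows of that length. The longer form GAGGAAGT, which contains it, occurred in 2 of the 7, Ly6c2 and Fcgr4, and in 3.2% of all windows. The Fcgr1 window also held TTCNNNGAA, a pattern bound by STAT factors and its own reverse complement, found in 1 of the 7 and in 8.3% of all windows. Such a match is a description of the letters and not a tested site. Capitals mark GAGGAA, or its reverse complement where the match is on the other strand, and, in Fcgr1, also the TTCNNNGAA match, which is the first run of capitals there. Ly6c2 is on the minus strand of chr15:75111922-75112221, Itgam on the plus strand of chr7:128062390-128062689, Fcgr1 on the minus strand of chr3:96293920-96294219, Fcgr3 on the minus strand of chr1:171059354-171059653 and Fcgr4 on the plus strand of chr1:171018676-171018975, each read 5′ to 3′.
Ly6c2: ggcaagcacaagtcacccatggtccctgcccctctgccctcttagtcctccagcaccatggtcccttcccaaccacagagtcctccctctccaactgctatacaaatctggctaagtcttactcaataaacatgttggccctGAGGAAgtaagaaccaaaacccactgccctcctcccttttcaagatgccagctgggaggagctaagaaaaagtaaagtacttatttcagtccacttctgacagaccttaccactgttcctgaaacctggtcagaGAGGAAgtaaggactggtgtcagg
Itgam: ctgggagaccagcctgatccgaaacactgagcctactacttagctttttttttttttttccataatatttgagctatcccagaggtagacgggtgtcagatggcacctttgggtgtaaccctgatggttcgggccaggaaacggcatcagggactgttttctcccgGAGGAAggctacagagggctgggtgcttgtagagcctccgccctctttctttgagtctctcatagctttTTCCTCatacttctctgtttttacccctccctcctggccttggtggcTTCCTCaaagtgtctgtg
Fcgr1: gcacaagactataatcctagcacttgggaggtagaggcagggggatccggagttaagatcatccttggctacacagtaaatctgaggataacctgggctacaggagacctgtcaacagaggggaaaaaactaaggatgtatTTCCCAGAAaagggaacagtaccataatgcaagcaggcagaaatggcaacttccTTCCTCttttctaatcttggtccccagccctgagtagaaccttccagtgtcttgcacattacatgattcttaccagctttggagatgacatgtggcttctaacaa
Fcgr3: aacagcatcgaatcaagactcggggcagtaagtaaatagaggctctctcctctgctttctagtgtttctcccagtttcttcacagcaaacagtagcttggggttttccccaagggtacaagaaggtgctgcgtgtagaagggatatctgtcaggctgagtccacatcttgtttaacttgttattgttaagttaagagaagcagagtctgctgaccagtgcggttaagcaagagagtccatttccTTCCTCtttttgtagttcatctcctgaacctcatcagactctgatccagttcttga
Fcgr4: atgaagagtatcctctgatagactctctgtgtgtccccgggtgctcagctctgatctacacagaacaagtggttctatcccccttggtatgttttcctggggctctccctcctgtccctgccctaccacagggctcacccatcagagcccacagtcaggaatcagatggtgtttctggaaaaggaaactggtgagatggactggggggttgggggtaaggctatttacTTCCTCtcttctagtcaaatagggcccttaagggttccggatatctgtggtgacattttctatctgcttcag
Counted from the annotated start, the matches begin at -108 and 27 in Ly6c2, at -84, -15 and 33 in Itgam, at -55 in Fcgr1, at -6 in Fcgr3 and at -22 in Fcgr4. Spi1, the gene of PU.1, had 21.9 and 4.97 FPKM in AAV-shPhpt1, 29.2 and 33.1 in AAV-Ctrl, and 6.89 and 3.58 in normal, and rose in AAV-Ctrl against normal (adjusted p = 0.0419). The windows of Ccr2 and Lyz2 and those of Fcgr2b and Fcer1g held neither pattern.

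Fcgr2b, Fcgr4 and Fcgr3 are neighbours on chromosome 1, with 42.4 kb between Fcgr2b and Fcgr4 and 21.4 kb between Fcgr4 and Fcgr3, and they did not keep a fixed proportion across libraries. Fcgr2b, the inhibitory receptor, had 20.8 and 8.75 FPKM in AAV-shPhpt1, 27.0 and 26.1 in AAV-Ctrl, and 4.72 and 9.81 in normal. It rose in AAV-Ctrl against normal (3.65-fold, adjusted p = 0.0385), and its log2 difference in AAV-shPhpt1 against AAV-Ctrl was -0.92 (adjusted p = 0.638). The summed FPKM of Fcgr1, Fcgr3 and Fcgr4 was 25.3 and 4.71 in AAV-shPhpt1, 56.6 and 54.9 in AAV-Ctrl, and 10.6 and 7.57 in normal. Divided by Fcgr2b, this gave 1.21 and 0.538 in AAV-shPhpt1, 2.10 and 2.11 in AAV-Ctrl, and 2.25 and 0.771 in normal. Both hairpin libraries had a lower ratio than both AAV-Ctrl libraries, and the 2 normal libraries lay far apart, replicate 1 above both AAV-Ctrl libraries and replicate 2 between the 2 hairpin libraries. In normal, Fcgr2b was higher in replicate 2, where the activating sum was lower. Endothelial markers were higher there too: Stab2 had 5.22 and 10.2 FPKM in normal, Clec4g 3.40 and 11.2, and Kdr 0.926 and 3.14. The part of endothelial cells in the Fcgr2b values was not tested. With 2 libraries against 2, an exact two-sided permutation test cannot give a p below 0.333. Fcgr3 shares 9.58% of its 50-base transcript windows with Fcgr2b, so some reads of this pair may be exchanged, while Fcgr1 and Fcgr4 share none with any other gene.

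**Figure D2:**
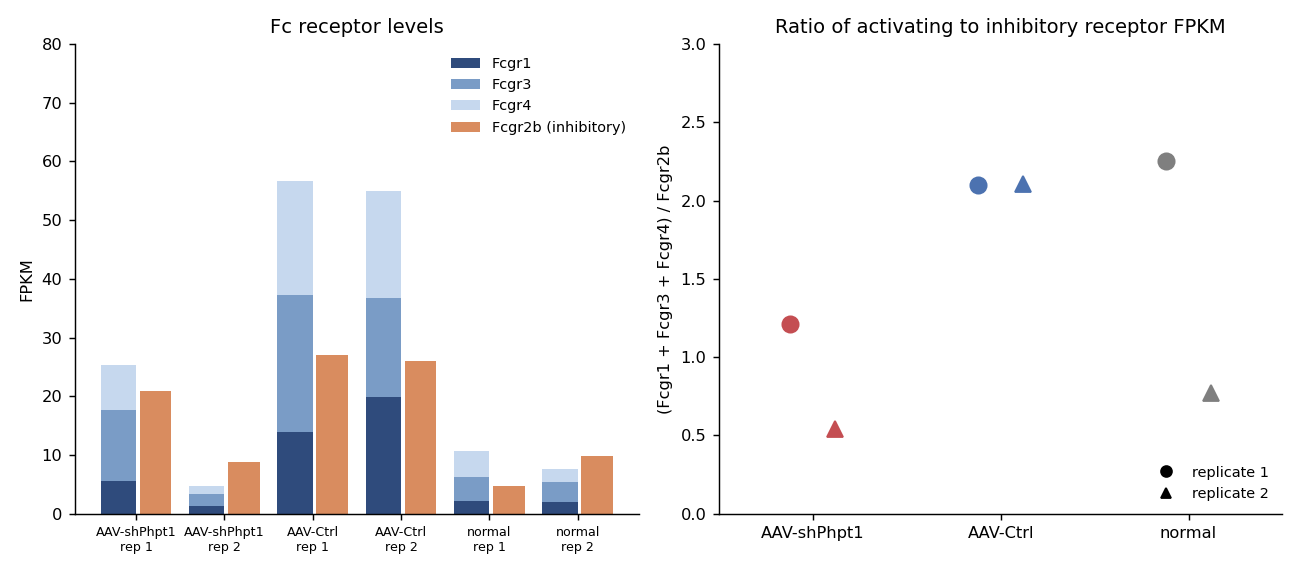
Left, FPKM of the activating receptors Fcgr1, Fcgr3 and Fcgr4, stacked, beside the inhibitory receptor Fcgr2b in every library; right, the ratio of the stacked sum to Fcgr2b, with circles for replicate 1 and triangles for replicate 2. The ratio is 1.21 and 0.538 in AAV-shPhpt1, 2.10 and 2.11 in AAV-Ctrl, and 2.25 and 0.771 in normal.

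The composition of the activating receptors varied less than their sum. Fcgr3 made up 48.2% and 45.1% of the 3 in AAV-shPhpt1, 41.3% and 30.6% in AAV-Ctrl, and 38.4% and 45.5% in normal. Fcgr4 made up 30.02% and 28.0% in AAV-shPhpt1, 34.1% and 33.1% in AAV-Ctrl, and 40.5% and 28.6% in normal. The ranges of AAV-shPhpt1 and normal overlapped for Fcgr4, and AAV-shPhpt1 lay above AAV-Ctrl for Fcgr3. Their common signalling chain Fcer1g had 60.5 and 16.0 FPKM in AAV-shPhpt1, 93.1 and 105.0 in AAV-Ctrl, and 14.4 and 9.12 in normal. It rose 8.43-fold in AAV-Ctrl against normal (adjusted p = 0.0250). Syk, the kinase that both adaptors recruit, had 9.65 and 2.61 FPKM in AAV-shPhpt1, 8.87 and 10.3 in AAV-Ctrl, and 1.45 and 1.30 in normal (adjusted p = 0.0321 in AAV-Ctrl against normal). Syk in AAV-shPhpt1 replicate 1 lay between the AAV-Ctrl libraries, whereas all 3 Fc receptors there lay below them. Fcgrt, which recycles IgG and is not an activating receptor, fell in AAV-Ctrl against normal (adjusted p = 0.0422) and in AAV-shPhpt1 against normal (adjusted p = 0.0471). It had 80.1 and 106.3 FPKM in AAV-shPhpt1, 110.7 and 102.9 in AAV-Ctrl, and 163.8 and 171.8 in normal.

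Tyrobp (ENSMUSG00000030579, chromosome 7, 30413760 to 30417585) had 49.5 and 11.1 FPKM in AAV-shPhpt1, 77.2 and 66.3 in AAV-Ctrl, and 14.4 and 8.23 in normal. Both AAV-Ctrl libraries stood above all others, and AAV-shPhpt1 replicate 2 lay between the normal libraries. The rise in AAV-Ctrl against normal was 6.35-fold (adjusted p = 0.0383), and the log2 difference of AAV-shPhpt1 against AAV-Ctrl was -1.55 (SE 0.63, adjusted p = 0.585). Fcer1g and Tyrobp, the 2 adaptors, stayed close to each other: the ratio of Fcer1g to Tyrobp was 1.22 and 1.44 in AAV-shPhpt1, 1.21 and 1.58 in AAV-Ctrl, and 0.999 and 1.11 in normal. Of 10 receptors that signal through adaptor chains such as Tyrobp or Fcer1g, 7 passed the filter. Of these, 3 rose in AAV-Ctrl against normal, Trem2, Cd300lb and Cd300ld, against 18.2% of all tested genes called higher. The list median was 1.35, against 0.353 over all genes tested. Which adaptor each receptor uses was not tested. Trem2, a lipid receptor of macrophages, had 4.89 and 0.865 FPKM in AAV-shPhpt1, 7.57 and 7.24 in AAV-Ctrl, and 0.150 and 0.135 in normal. Cd300lb, a paired receptor of myeloid cells, had 5.62 and 1.204 FPKM in AAV-shPhpt1, 6.86 and 6.98 in AAV-Ctrl, and 0.190 and 0.320 in normal (adjusted p = 0.0243 in AAV-Ctrl against normal). Cd300ld had 6.01 and 1.08 FPKM in AAV-shPhpt1, 10.4 and 9.46 in AAV-Ctrl, and 1.71 and 1.53 in normal (adjusted p = 0.0434). None of the 7 passed in AAV-shPhpt1 against AAV-Ctrl, where the list median was -1.05.

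Lyz2 (ENSMUSG00000069516, chromosome 10, 117277331 to 117282321), the lysozyme of monocytes, macrophages and neutrophils, was the most abundant of the 10 in every group. It had 164.1 and 47.7 FPKM in AAV-shPhpt1, 257.2 and 239.5 in AAV-Ctrl, and 25.6 and 20.8 in normal, so the 3 groups did not overlap. The order of the groups was AAV-Ctrl, AAV-shPhpt1, normal. The rise in AAV-Ctrl against normal was 10.7-fold (log2 difference 3.37, SE 0.52, adjusted p = 0.0180). The mean in AAV-shPhpt1 was 4.56-fold over normal (adjusted p = 0.0829), and its log2 difference from AAV-Ctrl was -1.48 (SE 0.52, adjusted p = 0.540). The copy Lyz1 lies 5.5 kb away and shares 16.1% of its windows with Lyz2. It was listed at 0.470 and 0 FPKM in AAV-shPhpt1, 0.322 and 0.296 in AAV-Ctrl, and 0 in both normal libraries, so reads exchanged between the pair would move Lyz2 little.

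In AAV-Ctrl against normal 8 of the 10 genes were called higher and none lower, against 18.2% and 2.28% of all tested genes (limma, adjusted p under 0.05). At an unadjusted p under 0.05 all 10 were higher, as were 36.2% of all tested genes, while 5.33% were lower. The median log2 difference of the 10 was 2.53, with a range of 1.70 to 3.37, and that of all tested genes was 0.353. All 10 had both AAV-Ctrl libraries above both normal libraries, which held for 60% of all tested genes. Centring each library on its median moved the median over all genes to -0.099 and left 4 of the 10 called, Ccr2, Cd14, Fcgr1 and Lyz2, against 4.19% of all genes. Most calls were not kept when 1 of the 4 libraries compared was left out, while the median log2 difference stayed between 2.15 and 2.65. The share of all tested genes called in these fits is not given, so the loss cannot be read as particular to the 10 genes.

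In AAV-shPhpt1 against AAV-Ctrl none of the 10 was called by limma, against 0% of all tested genes called in either direction, and none by the voom fit on recovered reads. At an unadjusted p under 0.05 there were 5 of the 10, Fcgr1, Fcgr3, Fcgr4, Lyz2 and Tyrobp, all lower, against 6.92% of all tested genes lower and 1.56% higher. Both hairpin libraries lay below both AAV-Ctrl libraries for these 5 and for Csf1r, a property of 26.2% of all tested genes. The 4 genes that overlapped were Ccr2, Ly6c2, Itgam and Cd14. The median log2 difference of the 10 was -1.51, with a range of -2.20 to 0.04, and that of all genes was -0.066. Without AAV-shPhpt1 replicate 1, the same 6 genes were called lower, against 2.73% of all tested genes, and the median of the 10 was -2.47. Without replicate 2 none was called, against 0.0148% of all tested genes, and the median was -0.55. Where 1 hairpin library is left, the fit assumes that it varies like the other groups.

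In AAV-shPhpt1 against normal Cd14 was the 1 call, and Ccr2, Itgam and Lyz2 joined it in having both hairpin libraries above both normal libraries, as 52.2% of all tested genes did. The other 6 overlapped normal. The same 4 genes were those higher at an unadjusted p under 0.05, against 26.2% of all tested genes higher and 5.44% lower. The median log2 difference was 1.09 for the 10 and 0.303 for all genes. Without AAV-shPhpt1 replicate 2, 6 of the 10 were called higher (Ccr2, Cd14, Csf1r, Fcgr3, Lyz2 and Tyrobp, with 13.7% of all genes), and without replicate 1 none was (0.399% of all genes). The comparisons share libraries, so their values are given side by side and are not independent of one another.

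**Figure D3:**
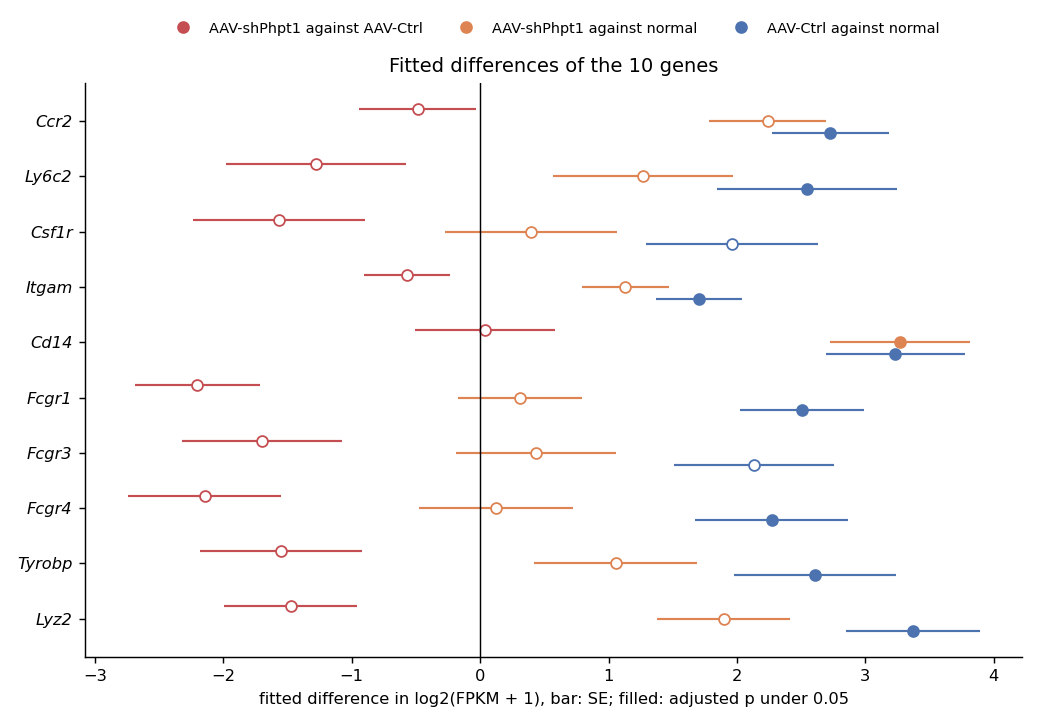
Fitted difference in log2(FPKM + 1) of each gene for AAV-shPhpt1 against AAV-Ctrl (red), AAV-shPhpt1 against normal (orange) and AAV-Ctrl against normal (blue), with the SE as a bar and filled circles where the adjusted p is under 0.05. Fcgr1 and Fcgr4 have the lowest red values, -2.20 and -2.15, and Cd14 the highest, 0.04.

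The gap between the hairpin libraries ran through 9 of the 10 genes. Replicate 2 was more than 2-fold below replicate 1 for 8 of them, which held for 14.5% of all tested genes, and more than 2-fold above it for Cd14, which held for 3.07%. As a percentage of the AAV-Ctrl mean, replicate 1 ranged from 32.5% (Fcgr1) to 118.0% (Ccr2) and replicate 2 from 7.02% (Fcgr4) to 142.1% (Cd14), with medians of 64.8% and 14.6%. Replicate 2 was below both normal libraries for 4 genes, Csf1r, Fcgr1, Fcgr3 and Fcgr4. Replicate 1 was above both normal libraries for all 10. In AAV-Ctrl the replicates also differed more than 2-fold for 3 genes, Ly6c2, Itgam and Cd14, each higher in replicate 2. In that group 5 genes, Lyz2, Csf1r, Fcgr3, Fcgr4 and Tyrobp, were higher in replicate 1, none of them more than 2-fold.

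**Figure D4:**
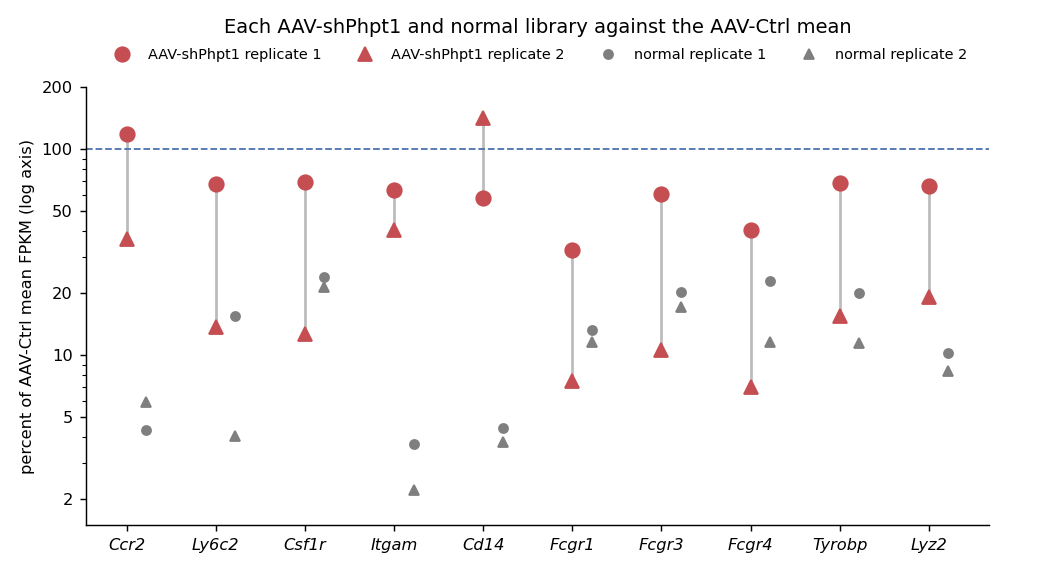
Each AAV-shPhpt1 library (red) and each normal library (grey) as a percentage of the AAV-Ctrl mean FPKM (dashed line at 100%, log axis), with circles for replicate 1 and triangles for replicate 2. Replicate 1 spans 32.5% to 118.0% and replicate 2 spans 7.02% to 142.1%, and among the AAV-shPhpt1 points Cd14 is the only gene whose triangle is above its circle.

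Genes of leukocytes in general moved with these results. In a bulk sample fewer cells of a type and less RNA per cell cannot be told apart. All 8 pan-leukocyte genes (Ptprc, Coro1a, Laptm5, Cd52, Cd53, Rac2, Arhgdib and Cytip) rose in AAV-Ctrl against normal, against 18.2% of all tested genes. Their summed FPKM was 252.0 and 69.9 in AAV-shPhpt1, 288.2 and 310.5 in AAV-Ctrl, and 53.5 and 39.8 in normal. Laptm5, a lysosomal membrane protein of blood cells and the most abundant of the 8, had 86.6 and 20.8 FPKM in AAV-shPhpt1, 107 and 100.4 in AAV-Ctrl, and 18.2 and 15.1 in normal (adjusted p = 0.0335 in AAV-Ctrl against normal). Cd52, a small surface glycoprotein of lymphocytes and monocytes, had 36.6 and 10.5 FPKM in AAV-shPhpt1, 46.4 and 51.0 in AAV-Ctrl, and 9.07 and 6.53 in normal (adjusted p = 0.0280). Replicate 1 of AAV-shPhpt1 was thus close to AAV-Ctrl in leukocyte genes, and replicate 2 was close to normal.

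Set against that sum, the 10 genes separated into those that kept pace with leukocyte genes and those that did not. Ccr2 per 100 FPKM of leukocyte genes was 4.02 and 4.48 in AAV-shPhpt1, 2.59 and 3.13 in AAV-Ctrl, and 0.696 and 1.27 in normal. The 3 groups did not overlap, and AAV-shPhpt1 was highest. Fcgr1 was 2.18 and 1.82 in AAV-shPhpt1, 4.82 and 6.43 in AAV-Ctrl, and 4.20 and 4.94 in normal. Fcgr4 was 3.01 and 1.88 in AAV-shPhpt1, 6.71 and 5.85 in AAV-Ctrl, and 8.04 and 5.43 in normal. For both receptors the hairpin libraries lay below all 4 others, and AAV-Ctrl and normal overlapped. Fcgr3 followed the same order, with 4.84 and 3.04 in AAV-shPhpt1, 8.11 and 5.42 in AAV-Ctrl, and 7.63 and 8.65 in normal. Macrophage genes outside the 10 also fell further than leukocyte genes before any division. In AAV-shPhpt1 against AAV-Ctrl the median log2 difference was -1.64 for 12 pan-macrophage genes and -1.22 for the 8 pan-leukocyte genes. The order is therefore not shown to be particular to the Fc receptors, and macrophage genes outside the 10 are not given on this scale. Counting all 10 on this scale, 5 (Lyz2, Fcgr1, Fcgr3, Fcgr4 and Tyrobp) were lower in both hairpin libraries than in both AAV-Ctrl libraries, as were 2.44% of all tested genes. Ccr2 alone was higher, as were 60% of all tested genes. The divisor was smaller in both AAV-shPhpt1 libraries, and Ccr2 itself was highest of all libraries in AAV-shPhpt1 replicate 1, at 10.1 FPKM. Csf1r, Ly6c2, Itgam and Cd14 overlapped. In AAV-shPhpt1 against normal 5 were lower (50% of all genes) and 4 higher (3.81%), namely Ccr2, Itgam, Lyz2 and Cd14. In AAV-Ctrl against normal the same 4 genes were higher (3.23% of all genes) and Csf1r was lower, as were 88.1% of all genes. These are descriptions of 2 libraries per group, for which no permutation p could reach the threshold.

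**Figure D5:**
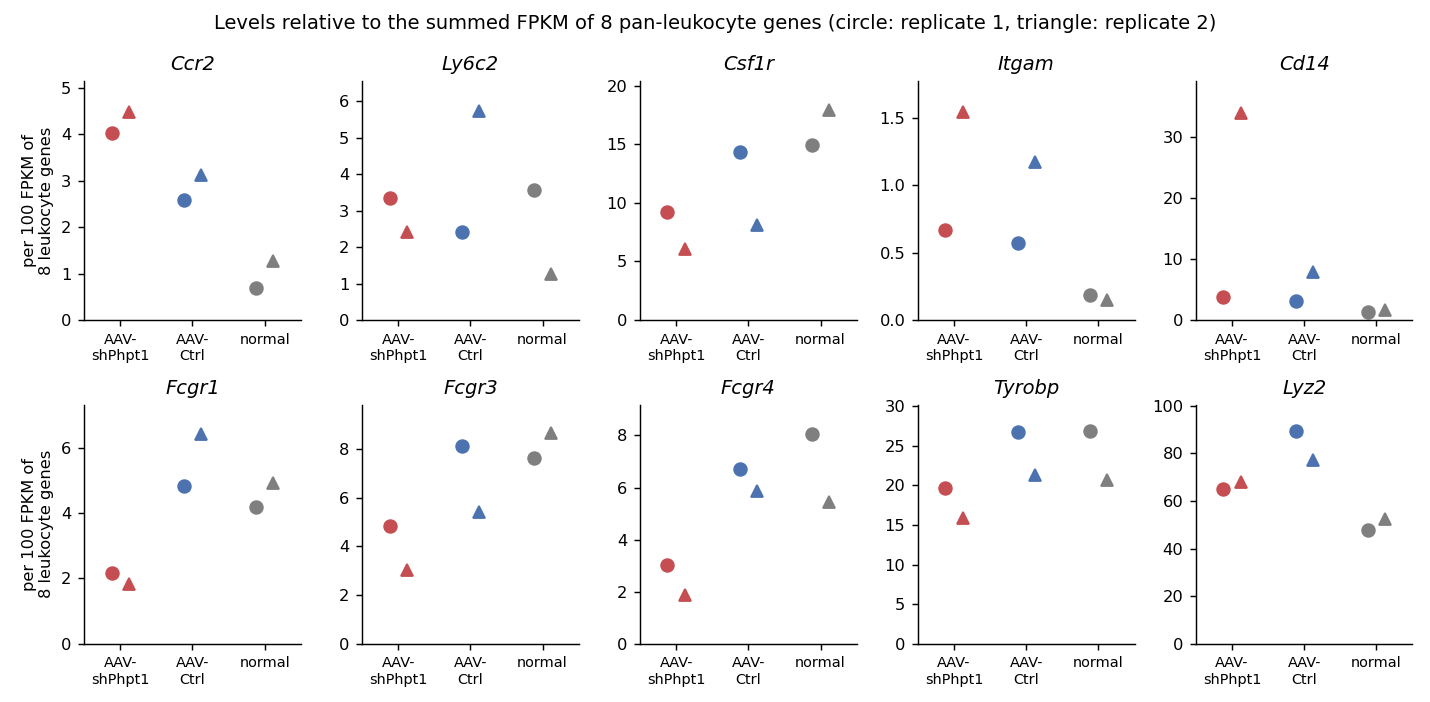
Level of each gene per 100 FPKM of the summed 8 pan-leukocyte genes, on linear axes from 0, with circles for replicate 1 and triangles for replicate 2. Ccr2 is 4.02 and 4.48 in AAV-shPhpt1, above the other groups, and Fcgr1 is 2.18 and 1.82, below them.

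Of 18 partner chains and signalling genes of the 10, 14 rose in AAV-Ctrl against normal and none fell, against 18.2% of all tested genes higher, with a median log2 difference of 1.84. Ly96, Myd88, Lyn and Pik3cg did not pass. Cd180, a Tlr4-like surface receptor, had 7.62 and 1.33 FPKM in AAV-shPhpt1, 18.8 and 20.1 in AAV-Ctrl, and 2.32 and 1.11 in normal. Lyn, a kinase that starts both activating and inhibitory Fc receptor signals, had 20.8 and 12.9 FPKM in AAV-shPhpt1, 24.7 and 27.9 in AAV-Ctrl, and 14.7 and 14.9 in normal (adjusted p = 0.0546 in AAV-Ctrl against normal). None of the 18 passed in AAV-shPhpt1 against AAV-Ctrl, where 16 had both hairpin libraries lower, against 26.2% of all tested genes, and the median was -0.92. Of 7 genes of inhibitory signalling and IgG recycling 6 rose in AAV-Ctrl against normal and 1, Fcgrt, fell. The most abundant of the risen ones over all libraries was Sirpa, the receptor for the signal that protects cells from uptake, with 50.2 and 12.4 FPKM in AAV-shPhpt1, 59.8 and 68.0 in AAV-Ctrl, and 5.57 and 6.25 in normal (adjusted p = 0.0226). Of 9 genes of receptor ligands and recruitment 7 passed the filter and 5 rose in AAV-Ctrl against normal, Ccl2, Ccl7, Csf1, Icam1 and Vcam1. Vcam1, an adhesion molecule for leukocytes, had 18.1 and 2.58 FPKM in AAV-shPhpt1, 23.6 and 19.1 in AAV-Ctrl, and 1.48 and 1.79 in normal.

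Of 10 further genes of classical monocytes 9 passed the filter, and 4, Chil3, F13a1, Ms4a6c and Plac8, rose in AAV-Ctrl against normal. The list median was 1.16, and 18.2% of all tested genes were called higher in that comparison, a share to set beside each such count here. Chil3, a chitinase-like secreted protein, had 35.4 and 8.20 FPKM in AAV-shPhpt1, 20.5 and 36.02 in AAV-Ctrl, and 1.82 and 0.484 in normal. Plac8 had 24.9 and 8.16 FPKM in AAV-shPhpt1, 34.3 and 52.6 in AAV-Ctrl, and 12.3 and 5.64 in normal. Of 7 genes of non-classical, patrolling monocytes 2, Cx3cr1 and Itgal, rose, against the same 18.2%, and the list median was 1.25. Itgal, an integrin chain, had 9.79 and 2.88 FPKM in AAV-shPhpt1, 15.4 and 12.4 in AAV-Ctrl, and 2.60 and 2.52 in normal. Treml4 had 3.97 and 0.490 FPKM in AAV-shPhpt1, 10.6 and 4.74 in AAV-Ctrl, and 0.952 and 1.03 in normal (adjusted p = 0.0581 in AAV-Ctrl against normal). In AAV-shPhpt1 against AAV-Ctrl the medians of the 2 lists were -0.63 and -0.45, with no gene called. Macrophage lists had lower medians there, -1.64 for 12 pan-macrophage genes and -1.93 for 7 Kupffer cell markers, against -1.51 for the 10 genes. Both hairpin libraries lay below both AAV-Ctrl libraries for 10 of the 12 and 6 of the 7, as for 26.2% of all tested genes. Of 11 myeloid transcription factor genes 6 rose in AAV-Ctrl against normal, among them Irf8 and Klf4. Cebpa and Cebpb, which hepatocytes also express, had the highest levels of the list and did not pass (adjusted p = 0.274 and 0.425). Cebpa had 67.8 and 142 FPKM in AAV-shPhpt1, 134 and 116 in AAV-Ctrl, and 191 and 167 in normal. Cebpb had 23.2 and 23.1 FPKM in AAV-shPhpt1, 44.5 and 48.2 in AAV-Ctrl, and 47.1 and 56.7 in normal, and it fell in AAV-shPhpt1 against normal (adjusted p = 0.0239).

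Cells other than monocytes carry several of these genes, and their markers moved too. Kupffer cell markers (7 genes) summed to 456.7 and 154.8 FPKM in AAV-shPhpt1, 774.4 and 546.4 in AAV-Ctrl, and 171.1 and 173.7 in normal. Of the 7 genes 2, Marco and Slc40a1, rose in AAV-Ctrl against normal, against 18.2% of all tested genes called higher. Slc40a1, the iron exporter ferroportin, had 149 and 117 FPKM in AAV-shPhpt1, 166 and 144 in AAV-Ctrl, and 67.4 and 90.4 in normal. It made up 117 of the 154.8 FPKM in AAV-shPhpt1 replicate 2. Clec4f, which is restricted to Kupffer cells, had 51.0 and 4.30 FPKM in AAV-shPhpt1, 95.5 and 54.4 in AAV-Ctrl, and 45.3 and 40.4 in normal. In AAV-shPhpt1 replicate 2 Timd4, Vsig4, Cd5l and Folr2, like Clec4f, lay below both normal libraries. They had 0.114, 2.47, 10.7 and 0.257 FPKM there. Marco and Slc40a1 lay above both normal libraries. Pan-macrophage genes (12) summed to 519.9 and 162.7 FPKM in AAV-shPhpt1, 934.7 and 890.6 in AAV-Ctrl, and 174.1 and 116.3 in normal, and 5 rose in AAV-Ctrl against normal: Adgre1, Cd68, Ctss, Lgals3 and Mpeg1. Neutrophil markers, which mark cells that also hold Lyz2, Itgam, Fcgr4 and Tyrobp, summed over 14 genes to 90.4 and 12.4 FPKM in AAV-shPhpt1, 25.5 and 36.1 in AAV-Ctrl, and 9.05 and 3.66 in normal. Csf3r, alone of the 9 tested, rose in AAV-Ctrl and in AAV-shPhpt1 against normal (adjusted p = 0.0154 and 0.0411). S100a9, a calcium-binding protein abundant in neutrophils and monocytes, had 29.6 and 4.01 FPKM in AAV-shPhpt1, 7.71 and 9.98 in AAV-Ctrl, and 3.79 and 1.13 in normal, and the granule gene Ngp had 8.35 and 0 FPKM in AAV-shPhpt1, 0.222 and 0.204 in AAV-Ctrl, and 0.190 and 0.137 in normal. Csf3r had 10.03 and 5.37 FPKM in AAV-shPhpt1, 9.46 and 13.3 in AAV-Ctrl, and 1.62 and 1.36 in normal. Ly6g, the defining neutrophil surface gene, was at 0.265 and 0 FPKM in AAV-shPhpt1, 0 and 0.130 in AAV-Ctrl, and 0 in both normal libraries. The summed neutrophil markers were thus higher in AAV-shPhpt1 replicate 1, the library in which 9 of the 10 genes were higher. The parts of Kupffer cells, macrophages and neutrophils in the values of the 10 genes were not tested.

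Dendritic cell markers (9 genes, 5 tested) summed to 26.2 and 9.47 FPKM in AAV-shPhpt1, 21.9 and 22.5 in AAV-Ctrl, and 4.20 and 5.33 in normal. Itgax, the CD11c chain shared with macrophages, had 11.01 and 4.41 FPKM in AAV-shPhpt1, 8.93 and 10.8 in AAV-Ctrl, and 0.665 and 0.706 in normal, and it rose in both CCl4 groups against normal (adjusted p = 0.0384 in AAV-shPhpt1 and 0.0159 in AAV-Ctrl). Ccr7 also rose in AAV-Ctrl (adjusted p = 0.0453). Markers of T and NK cells (12 genes) summed to 32.1 and 7.03 FPKM in AAV-shPhpt1, 23.3 and 16.9 in AAV-Ctrl, and 6.74 and 5.78 in normal, and those of B and plasma cells (7 genes) to 38.6 and 7.09, 10.8 and 6.78, and 5.58 and 5.37 FPKM in the same order of groups. No gene of these 2 lists passed in AAV-Ctrl against normal, where 3 T and NK cell genes and 2 B and plasma cell genes were under the filter. Of 10 hepatocyte markers 2 rose and 2 fell in AAV-Ctrl against normal, against 18.2% and 2.28% of all tested genes, with a median of -0.06. Of 10 stellate and endothelial markers 6 rose, with a median of 1.58.

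By level, the order in AAV-Ctrl was Lyz2, Tyrobp, Csf1r, Fcgr3, Fcgr4, Fcgr1, Cd14, Ly6c2, Ccr2 and Itgam. Lyz2, Tyrobp and Csf1r were separated from their neighbours in that order by non-overlapping libraries, and Itgam was likewise below Ccr2, whereas the 5 genes between Csf1r and Ccr2 overlapped with at least 1 neighbour. In normal the first 6 genes stood in the same order. In AAV-shPhpt1 Cd14 took rank 3 and Fcgr1 rank 9, but every gene there except Itgam spanned more than 2-fold between libraries, and neighbours overlapped.

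Over the 6 libraries, each gene's log2(FPKM + 1) was set against the mean of the other 9 after standardising. Pearson's r was 0.987 for Lyz2 and 0.975 for Tyrobp, 0.881 to 0.952 for 7 others, and 0.599 for Cd14, which stood apart. The 5 other genes of the table with the most similar pattern to the mean of the 10 were Tlr6, Nlrp3, Emp3, Fcer1g and Ccl6, with r between 0.998 and 0.999. Ccl6, a chemokine of myeloid cells, had 39.7 and 8.35 FPKM in AAV-shPhpt1, 91.6 and 116.5 in AAV-Ctrl, and 5.51 and 3.54 in normal. Tlr6, a receptor for bacterial lipopeptides, had 1.38 and 0.541 FPKM in AAV-shPhpt1, 1.71 and 1.91 in AAV-Ctrl, and 0.384 and 0.304 in normal. These correlations over 6 libraries share the group differences and the gap between the hairpin libraries and are given as a description.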

How the data were processed

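The authors deposited 1 table with 1 column per library. No unit is written in its header. That the deposited values are FPKM was read from their steps: per library, a value times the mean length of the gene's transcripts (GENCODE M21, GRCm38) is a whole multiple of 1 step, within 0.05 reads, for 97.8% to 98.3% of values under 30 reads. These steps gave the reads quoted. The submitters' processing notes name Bowtie 0.12.2, an aligner, and both mm8 and mm9 as builds, with no role for each; the sources used here give no counter, annotation or read length.

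Groups came from the sample titles. A gene was tested where any group averaged 1 FPKM or more (13517 genes, all 10 members among them). The fit was on log2(FPKM + 1), by limma 3.58.1 (trend) in R 4.3.3, in 1 fit over the 6 libraries with 3 residual degrees of freedom. Tests were two-sided, with Benjamini-Hochberg adjustment over all genes tested, called under 0.05. This scale understates changes of low genes. Fold values are ratios of group mean FPKM. Nothing says that libraries came from separate animals, so p-values measure only the spread between these samples. Counting intervals are exact conditional binomial at 95% (scipy 1.17.1) and cover counting error only. The 50-base windows are stretches of annotated transcripts.

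The members and lists were chosen with earlier results of these data known. All 10 members are named, and of the other lists the genes that form a unit with a member, the close copies, the 2 most abundant genes of each list and the 5 genes most like the members over the libraries. Further genes of the lists were named after their values were seen. Alternatives were another pseudocount and filters, median centring, quantile normalization, fits of 2 groups, without trend or with a replicate block, voom on recovered reads, and each library left out.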

Additional observations from a re-analysis of the deposited data

How the results depend on the processing

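Of the 10 genes, 8 were called in AAV-Ctrl against normal, 0 in AAV-shPhpt1 against AAV-Ctrl and 1 in AAV-shPhpt1 against normal. In AAV-Ctrl against normal the count was 0 with no filter, 4 with median centring, 4 with quantile normalization and 5 without the trend. With median centring 4.19% of all tested genes were called higher, against 18.2% in the main fit. Shares of all tested genes are not given here for the other settings, so a lost count cannot be read as particular to the 10 genes. Most calls were not kept when 1 of the libraries compared was left out. With no filter many more low genes enter both the fit and the adjustment. The cause of the lost calls was not tested for any setting. In AAV-shPhpt1 against normal it was 3 with a pseudocount of 0.1, 2 with a filter of 5 FPKM, and 0 with no filter, median centring, quantile normalization, only the groups compared, no trend, or voom on recovered reads, and 0 to 6 with 1 library left out; the cause was not tested. In AAV-shPhpt1 against AAV-Ctrl it ranged from 0 to 6 with 1 library left out and was 0 under every other alternative run.

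Fitted log2 differences changed sign only where they were not called in the main fit. In AAV-shPhpt1 against normal, Fcgr1 gave -0.042 with median centring and -0.071 with quantile normalization, and Fcgr4 gave -0.23 and -0.21. With 1 library left out, Fcgr1 ranged from -0.45 to 1.07, Fcgr4 from -0.82 to 1.07 (-0.25 without normal replicate 2), Csf1r from -0.71 to 1.498 and Fcgr3 from -0.60 to 1.47, each lowest without AAV-shPhpt1 replicate 1 and highest without replicate 2. In AAV-shPhpt1 against AAV-Ctrl, Ccr2 ranged from -1.20 without AAV-shPhpt1 replicate 1 to 0.23 without replicate 2, and Cd14 from -0.66 without AAV-Ctrl replicate 1 to 0.73 without replicate 2 (-0.57 without AAV-shPhpt1 replicate 2).

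The replicate numbers are shared between groups without a stated link, and same-numbered deviations correlated over genes at 0.153 for AAV-shPhpt1 with AAV-Ctrl, 0.0406 for AAV-shPhpt1 with normal and 0.0727 for AAV-Ctrl with normal. With the replicate block the count was 0 for AAV-shPhpt1 against AAV-Ctrl, where 0% of all tested genes were called. It was 1 for AAV-shPhpt1 against normal and 9 for AAV-Ctrl against normal, where Ly6c2 was lost and Csf1r and Fcgr3 were gained. The shares of all tested genes called against normal in this fit are not given, so these counts cannot be read as particular to the 10 genes. Itgam in normal liver rests on 6 and 4 reads, and how reads over the bases it shares with Gm49368 were counted is not known.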

Other observations

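Macrophage genes outside the 10 were uneven in AAV-shPhpt1 replicate 2. Lgals3, galectin-3, had 109.8 and 83.2 FPKM in AAV-shPhpt1, 121.9 and 163.8 in AAV-Ctrl, and 7.13 and 2.80 in normal, and it rose in AAV-shPhpt1 against normal (adjusted p = 0.0115, limma). C1qa, the complement chain made by macrophages, had 68.4 and 8.31 FPKM in AAV-shPhpt1, 129.6 and 114.9 in AAV-Ctrl, and 38.4 and 25.5 in normal, so replicate 2 lay below both normal libraries. Marco, a scavenger receptor, had 116.0 and 20.2 FPKM in AAV-shPhpt1, 218.2 and 164.0 in AAV-Ctrl, and 3.36 and 2.29 in normal, and it too rose in AAV-shPhpt1 against normal (adjusted p = 0.0484). These 3 are among the most abundant genes of their marker lists. Jchain, a gene of plasma cells, was high in AAV-shPhpt1 replicate 1, with 23.9 and 1.99 FPKM in AAV-shPhpt1, 2.08 and 0.645 in AAV-Ctrl, and 1.82 and 1.41 in normal.

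The most abundant markers of other cell types gave these values. Col1a1, a collagen chain of activated stellate cells, had 28.2 and 6.94 FPKM in AAV-shPhpt1, 72.5 and 61.2 in AAV-Ctrl, and 1.93 and 2.60 in normal, and it rose in AAV-Ctrl against normal (adjusted p = 0.0151, limma). Stab2, a scavenger receptor of sinusoidal endothelium, had 13.6 and 6.05 FPKM in AAV-shPhpt1, 17.0 and 12.97 in AAV-Ctrl, and 5.22 and 10.2 in normal (adjusted p = 0.146 in AAV-Ctrl against normal). Clec9a, a marker of conventional dendritic cells, had 7.03 and 1.15 FPKM in AAV-shPhpt1, 5.29 and 4.98 in AAV-Ctrl, and 0.952 and 2.05 in normal. Nkg7, a granule protein of cytotoxic cells, had 5.401 and 1.30 FPKM in AAV-shPhpt1, 3.37 and 2.62 in AAV-Ctrl, and 0.667 and 0.958 in normal. Trac, the constant part of the T cell receptor alpha chain, had 6.03 and 1.104 FPKM in AAV-shPhpt1, 3.56 and 1.11 in AAV-Ctrl, and 0.829 and 0.868 in normal. Cd79a, a B cell receptor chain, had 4.04 and 1.14 FPKM in AAV-shPhpt1, 2.33 and 1.14 in AAV-Ctrl, and 1.18 and 0.717 in normal. These 4 lymphoid and dendritic genes were highest in AAV-shPhpt1 replicate 1. Apoa1, an apolipoprotein from hepatocytes, had 9607 and 6604 FPKM in AAV-shPhpt1, 4851 and 5350.4 in AAV-Ctrl, and 10764 and 10988 in normal (adjusted p = 0.0580 in AAV-Ctrl against normal).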
